A study of Homo sapiens with 10 samples.

Results

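The comparison set 12Z cells that had received 10 ng/ml IL1β together with 1 µM CDD-3013 against 12Z cells that had received vehicle, and sorted the genes that respond to IL1β by whether their response persisted, was lost or was amplified. It held 4 of the 10 libraries of the series, chosen by their treatment labels: 2 of vehicle cells and 2 of cells given IL1β plus CDD-3013. The 2 libraries of cells given IL1β alone defined the IL1β response, and the 2 of cells given IL1β plus 1 µM CDD-2728 served for a comparison of the compounds. All 10 libraries entered 1 fit and shared its estimate of the spread, among them 2 of cells given IL1β plus 10 µM CDD-2728, which are compared with no group here. These 2 stood apart on the second principal component (21.74 and 20.9, against -8.8 to 0.6 in the others). 12Z is an established, immortalized line of human epithelial cells from peritoneal endometriosis. In every group the cells were starved overnight in medium without phenol red holding 2% charcoal-stripped serum, then pre-treated for 30 min with DMSO or the inhibitor. IL1β was present for 6 h. The vehicle cells received DMSO and no IL1β. The series describes both CDD compounds as inhibitors of JNK. No group received an inhibitor without IL1β, so an action of CDD-3013 on the resting cells and an action on the IL1β response cannot be told apart.

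IL1β binds the receptor IL1R1 with its co-receptor IL1RAP and acts through the adaptor MYD88, the IRAK kinases and TRAF6. From there the signal divides into the IKK branch, which frees NF-κB, and the mitogen-activated protein kinase branch, in which JNK phosphorylates JUN and other AP-1 factors. Both branches meet on the promoters of chemokine, cytokine, adhesion and prostaglandin genes, and IL1β is one of the cytokines found in the peritoneal fluid around endometriotic lesions.

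The libraries held 16312600 to 19479416 counts each, and 15740 genes were tested. Levels are in CPM, with the length and GC trends of the library removed. For CPM the counts of each library were divided by its total times its TMM factor. This factor sets the scale by the bulk of the genes and ran from 0.9174 (CDD-3013 replicate 2) to 1.1139 (vehicle replicate 1). The levels are given for the 2 libraries of a group in turn. Differences are log2 fold changes ± SE from edgeR, with p-values adjusted over all tested genes. Nothing states that the 2 libraries of a group came from separate cultures, so the p-values measure the spread between these libraries, which may be technical. The levels of cell type markers, unlike the others, still hold the length and GC trends. The highest epithelial marker was KRT8, the highest stromal one COL1A1 and the highest mesothelial one LRRN4. Of the 12 epithelial markers 6 stayed under 1 CPM, with GRHL2 at 0. The summed epithelial markers were 9309 and 10080 CPM in the vehicle libraries, 9020 and 9135 CPM with IL1β alone and 12270 and 13480 CPM with IL1β plus CDD-3013. Over the 7 tested epithelial markers, the median log2 difference of the CDD-3013 arm from IL1β alone was 0.44 without the correction for length and GC content and 0.24 with it. The part of these markers in the differences below was not tested. Of the 17 immune markers 15 stayed under 1 CPM, with FCGR3A, CD3E and CD2 at 0.

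The libraries of the CDD-3013 arm differed from the others by transcript length and by GC content. Before correction, the median log2 change from vehicle in this arm ran from 0.24 among genes with a median transcript length of 1407 bases to -0.31 among those with 9191 bases. By GC content it ran from -0.28 at 37.18% to 0.17 at 64.46%. With IL1β alone the same medians stayed between -0.05 and 0.06. After the correction the medians of the CDD-3013 arm lay between -0.02 and 0.02. A 3′ bias, RNA quality or an effect of the compound on long transcripts was not tested as a source of this trend. The correction mattered more for the difference from IL1β alone than for the difference from vehicle: of the calls against vehicle, 6102 were made with and without it, 1260 only with it, 1656 only without it and 14 in opposite directions. Against IL1β alone 2934 calls were shared, 1044 were made only with the correction, 2757 only without it and 32 in opposite directions.

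**Figure D1:**
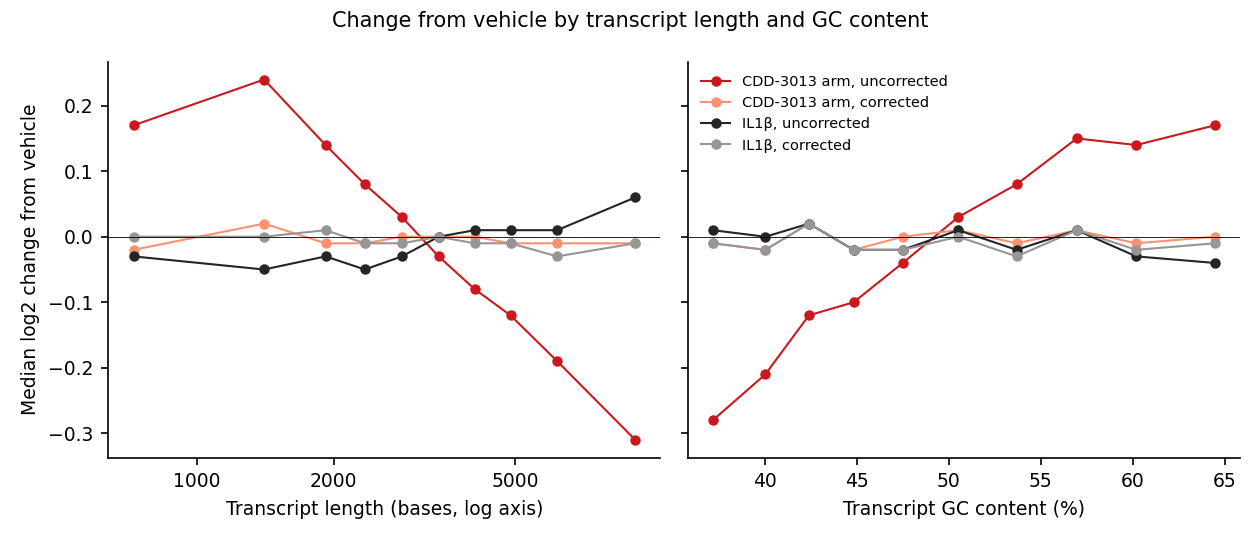
Median log2 change from vehicle in 10 equal bins of the tested genes ordered by transcript length (bases) and by GC content (%), for IL1β alone and for IL1β plus 1 µM CDD-3013, before and after the correction. Before correction the CDD-3013 arm falls from 0.24 to -0.31 with length and rises from -0.28 to 0.17 with GC content, while the corrected medians lie within 0.02 of 0.

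With IL1β plus CDD-3013, 4180 genes were higher than with vehicle (26.6% of those tested) and 3196 lower (20.3%). A change of at least 2-fold was reached by 752 higher genes (4.78%) and 771 lower ones (4.9%). IL1β alone raised 3086 genes (19.6%) and lowered 2719 (17.3%), among them 684 (4.35%) and 501 (3.18%) by at least 2-fold. These last 684 and 501 genes are the IL1β response followed below. Against IL1β alone, 2461 genes were higher in the CDD-3013 arm (15.6%) and 1549 lower (9.84%). These were 1499 and 785 without IL1β replicate 1 and 1622 and 934 without CDD-3013 replicate 2, and 951 were lower without IL1β replicate 2. Without vehicle replicate 1, 2081 genes were lower than vehicle in the CDD-3013 arm, and without IL1β replicate 1, 1772 with IL1β alone. Scaling by library totals was run without the correction for length and GC content. It moved the median of all genes to -0.29 for the CDD-3013 arm against vehicle, -0.18 for IL1β against vehicle and -0.09 between these arms. Under that scaling only 24.6% of the calls against vehicle were higher in the CDD-3013 arm, against 56.7% in the main fit. With the main scaling and no correction the share was 52.6%. For IL1β alone these shares were 25.5%, 53.2% and 54.0%, and for the CDD-3013 arm against IL1β alone 39.2%, 61.4% and 52.3%. The directions given here are therefore relative to the bulk of the genes.

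Of the 684 genes raised by IL1β, 329 (48.1%) persisted, meaning that they were called above vehicle in the CDD-3013 arm and were not called different from IL1β alone. Another 176 (25.73%) were amplified, called further from vehicle than with IL1β alone. The response was partly lost in 110 genes (16.08%), which were called below IL1β alone and still above vehicle. It was lost in 37 (5.409%), which were called below IL1β alone and no longer above vehicle. The IL1β libraries both chose the response and served as the comparison. With 1 IL1β replicate choosing and the other compared, 22 or 21 raised genes were lost and 69 or 84 partly lost. The remaining 32 were called neither above vehicle nor different from IL1β alone. The median share of the IL1β response left, the log2 change of the CDD-3013 arm over that of IL1β alone, was 101.4% over all 684 raised genes. It was 101.6% in the persisting, 126.9% in the amplified, 74.04% in the partly lost and -2.654% in the lost genes. Persisting is a failure to call a difference and does not show that the levels were equal. The lost genes were mostly lowly expressed: 22 of the 37 stayed under 5 CPM in every one of the 3 groups and 19 were protein-coding. Of the 110 partly lost genes only 3 stayed under 5 CPM and 103 were protein-coding.

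**Figure D2:**
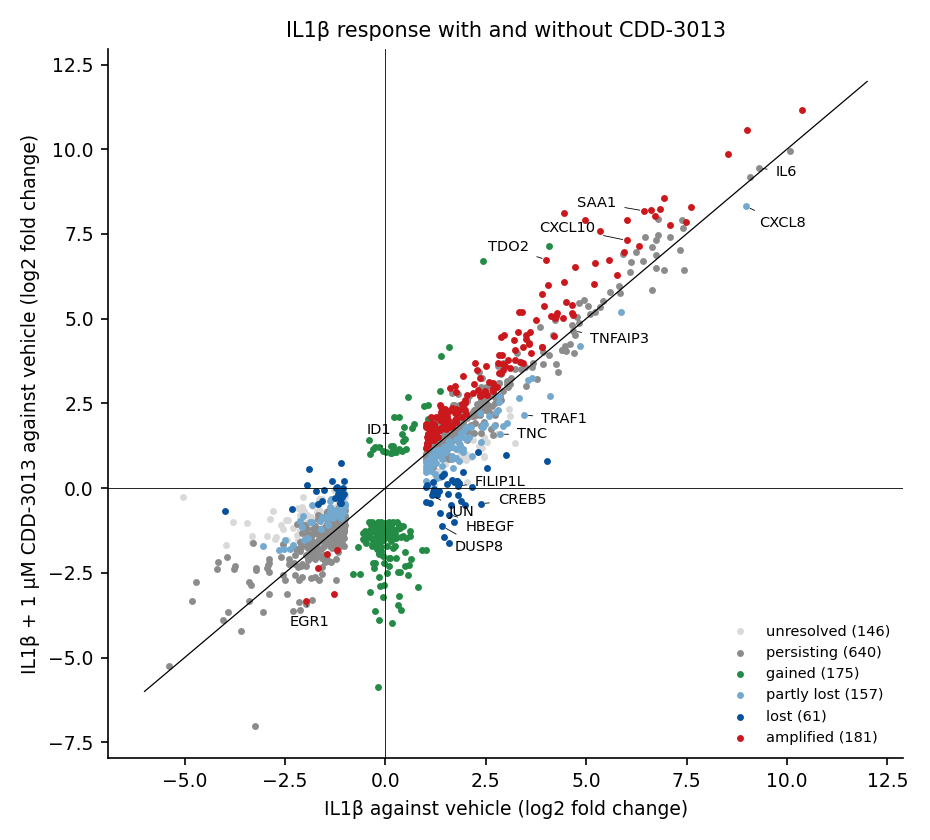
Log2 fold change from vehicle with IL1β plus 1 µM CDD-3013 (vertical axis) against that with IL1β alone (horizontal axis), coloured by class. The points are the genes changed at least 2-fold by IL1β and, as gained, 34 higher and 141 lower genes. The gained genes changed at least 2-fold with IL1β plus CDD-3013 and were not called with IL1β alone. Most points lie along the line of equal change, with 37 raised and 24 lowered genes near the level of no change from vehicle. The axes share the vehicle libraries, so the spread along the line is not a correlation to be read.

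The promoters of genes at both ends of this range are shown because NF-κB and AP-1 act at the ends of the branches named above. The windows are the 250 bases upstream of a RefSeq start site on GRCh38.p14, 5′ to 3′ on the strand of the gene, and capitals mark every match, on either strand, to the AP-1 motif TGANTCA or to the NF-κB motif, GGG and CC with any 5 bases between them. The AP-1 letters occur in 6.573% and the NF-κB letters in 54.43% of the 35116 windows of the table, overlapping matches included. The first 3 windows belong to genes whose response was lost and the last 2 to genes whose response persisted. They lie at chr5:140346604-140346853 on the minus strand (HBEGF), chr11:1572272-1572521 on the minus strand (DUSP8), chr7:28685883-28686132 on the plus strand (CREB5, at 1 of its start sites), chr7:22726950-22727199 on the plus strand (IL6) and chr4:73869143-73869392 on the plus strand (CXCL1).
HBEGF: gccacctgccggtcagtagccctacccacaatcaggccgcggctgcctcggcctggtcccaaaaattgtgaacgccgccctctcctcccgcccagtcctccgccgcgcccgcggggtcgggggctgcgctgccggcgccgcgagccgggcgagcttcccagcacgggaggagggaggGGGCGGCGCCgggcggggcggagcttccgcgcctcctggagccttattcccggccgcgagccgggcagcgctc
DUSP8: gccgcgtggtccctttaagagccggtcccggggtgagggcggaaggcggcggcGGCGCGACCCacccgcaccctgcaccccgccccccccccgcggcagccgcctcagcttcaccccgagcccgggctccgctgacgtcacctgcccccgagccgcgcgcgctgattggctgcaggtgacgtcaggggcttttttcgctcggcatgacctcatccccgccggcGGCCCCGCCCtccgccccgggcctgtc
CREB5: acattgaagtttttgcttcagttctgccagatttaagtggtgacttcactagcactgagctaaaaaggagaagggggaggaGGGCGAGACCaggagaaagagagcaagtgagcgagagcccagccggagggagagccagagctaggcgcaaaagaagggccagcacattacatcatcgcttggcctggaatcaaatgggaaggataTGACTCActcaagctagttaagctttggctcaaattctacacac
IL6: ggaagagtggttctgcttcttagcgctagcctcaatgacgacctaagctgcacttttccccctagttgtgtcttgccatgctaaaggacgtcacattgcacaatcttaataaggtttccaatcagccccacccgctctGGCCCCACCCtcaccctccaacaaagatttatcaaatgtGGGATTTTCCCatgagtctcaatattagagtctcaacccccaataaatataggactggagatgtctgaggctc
CXCL1: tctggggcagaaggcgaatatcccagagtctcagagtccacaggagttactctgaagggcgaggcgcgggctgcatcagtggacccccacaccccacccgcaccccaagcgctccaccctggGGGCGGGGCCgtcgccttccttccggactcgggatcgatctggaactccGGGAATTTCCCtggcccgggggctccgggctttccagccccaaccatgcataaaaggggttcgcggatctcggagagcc
The table holds 2 other windows of CREB5 and 1 of IFNE, a further lost gene, and none of these 3 held a match to either motif. The CREB5 window shown held the only AP-1 match of the 5, starting 44 bases before the start site (position -44), and 1 NF-κB match at -169. The IL6 window held NF-κB matches at -112, -73 and -72 and that of CXCL1 at -128, -79 and -78. The GC-rich windows of HBEGF and DUSP8 held NF-κB letters at -73 and at -197 and -27. Over the classes, the AP-1 letters were found in 9.281% of 334 windows of persisting raised genes, 13.49% of 126 of partly lost, 4.0% of 25 of lost and 8.78% of 205 of amplified genes, against 4.713% of 16232 windows of tested genes. The NF-κB letters were found in 70.36%, 71.43%, 36.0% and 69.27% of these windows, against 67.64%. A match is a description of the letters, and no match says nothing about the factor.

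The lost genes included the AP-1 factors JUN and CREB5, the growth factor HBEGF and the phosphatases DUSP8 and DUSP1. JUN (chr1:58780788-58784327, minus strand, GENCODE 29 on GRCh38), the AP-1 subunit that JNK phosphorylates and that acts on its own promoter, had 136 and 149.9 CPM in the vehicle libraries, 312 and 327 CPM with IL1β alone and 121 and 126 CPM with IL1β plus CDD-3013. Both CDD-3013 libraries lay below both libraries of the other groups. JUN differed from vehicle by 1.16 ± 0.06 (SE, adjusted p = 5.96e-16) with IL1β alone, and the CDD-3013 arm differed from IL1β alone by -1.37 ± 0.06 (SE, adjusted p = 4.73e-16). Its difference from vehicle was -0.21 ± 0.06 (SE, adjusted p = 0.00421), which was not called without the correction (-0.12), without vehicle replicate 2 (-0.13, adjusted p = 0.152) or without CDD-3013 replicate 1 (-0.17, adjusted p = 0.0629). CREB5 (chr7:28299321-28825894, plus strand), a bZIP factor of the CREB and ATF family that pairs with JUN, had 2.73 and 3.56 CPM in the vehicle libraries, 15.2 and 17.5 CPM with IL1β alone and 2.34 and 2.18 CPM with IL1β plus CDD-3013. The CDD-3013 libraries lay below both other groups, -2.85 ± 0.26 (SE, adjusted p = 5.93e-10) from IL1β alone. The difference from vehicle was not called (-0.46 ± 0.28 SE, adjusted p = 0.181) but was called without the correction (-0.80). JUND, a further AP-1 subunit, had 296 and 289 CPM in the vehicle libraries, 408 and 392 CPM with IL1β alone and 226 and 235 CPM with IL1β plus CDD-3013. Its CDD-3013 values were the lowest, -0.34 ± 0.05 (SE, adjusted p = 4.47e-06) from vehicle and -0.79 ± 0.05 (SE, adjusted p = 9.24e-12) from IL1β alone, the former not called without the correction (-0.10).

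Other members of the AP-1 family went other ways. ATF3, a stress-induced bZIP factor, had 9.79 and 10.2 CPM in the vehicle libraries, 26.9 and 26.4 CPM with IL1β alone and 14.5 and 16.6 CPM with IL1β plus CDD-3013, and its rise was partly lost (0.64 ± 0.12 SE, adjusted p = 5.79e-05 against vehicle, -0.78 ± 0.11 (SE, adjusted p = 4.36e-06) against IL1β alone). FOSL1, a FOS-related subunit, had 23.9 and 32.5 CPM in the vehicle libraries, 83.4 and 86.2 CPM with IL1β alone and 49.3 and 60.6 CPM with IL1β plus CDD-3013. It was above vehicle (0.96 ± 0.21 SE, adjusted p = 0.009), and its difference from IL1β alone missed the threshold (-0.63 ± 0.19 SE, adjusted p = 0.0596). Without either vehicle library that difference was called (-0.62, adjusted p = 0.0194 and 0.0199), as it was without either CDD-2728 library (-0.62). JUNB, in contrast, had 32.9 and 29.7 CPM in the vehicle libraries, 105 and 118 CPM with IL1β alone and 148 and 159.8 CPM with IL1β plus CDD-3013, all CDD-3013 values being the highest, and lay 0.47 ± 0.08 (SE, adjusted p = 0.00035) above IL1β alone. FOSL2 was amplified by only 0.18 ± 0.05 (SE, adjusted p = 0.016), a call that was lost without any 1 of the 4 libraries compared (0.16 to 0.19), and its sign turned under library totals (-0.05) and with GC content alone corrected (-0.06). FOS, low at this time in every group, had 2.40 and 2.66 CPM in the vehicle libraries, 2.63 and 1.75 CPM with IL1β alone and 3.92 and 3.79 CPM with IL1β plus CDD-3013, 0.61 ± 0.23 (SE, adjusted p = 0.0316) from vehicle in the CDD-3013 arm, a call lost without either library of either of these groups (0.55 to 0.70). Of the 18 tested members of the list of AP-1 and other bZIP factors, 10 were higher than vehicle and 3 lower in the CDD-3013 arm (26.6% and 20.3% of all tested genes), with a median log2 change of 0.4 against 1.03 for IL1β alone. Against IL1β alone 4 were higher and 6 lower (15.6% and 9.84% of all genes), and without the correction 4 and 9. MAFF and BACH1, small-MAF and BACH partners of this family, persisted, with 2.36 ± 0.08 and 1.38 ± 0.07 above vehicle. For BACH1 this depended on the processing. Its difference from IL1β alone, -0.1 in the main fit, ran from -0.5 to -0.01 over 19 fits and was called in 4 of them.

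HBEGF (chr5:140332843-140346631, minus strand), the heparin-binding ligand of the EGF receptor, had 49.6 and 54.2 CPM in the vehicle libraries, 156 and 158 CPM with IL1β alone and 29.99 and 30.6 CPM with IL1β plus CDD-3013. All of its CDD-3013 values lay below the lowest vehicle value. The difference was -0.78 ± 0.07 (SE, adjusted p = 8.9e-10) from vehicle and -2.37 ± 0.07 (SE, adjusted p = 1.53e-19) from IL1β alone. DUSP8 (chr11:1554044-1571920, minus strand), a phosphatase that acts on JNK and p38, followed the same course with 23.6 and 21.5 CPM in the vehicle libraries, 59.6 and 61.1 CPM with IL1β alone and 10.4 and 10.2 CPM with IL1β plus CDD-3013. It differed from vehicle by -1.13 ± 0.11 (SE, adjusted p = 2.3e-09) and from IL1β alone by -2.55 ± 0.11 (SE, adjusted p = 3.12e-16). JUN, HBEGF and DUSP8 were the 3 genes of the response that were raised by IL1β and called below vehicle with CDD-3013. FILIP1L (chr3:99830141-100114513, minus strand), a gene that shares its locus with another transcription unit, had 72.4 and 72.8 CPM in the vehicle libraries, 246 and 263 CPM with IL1β alone and 77.2 and 75.4 CPM with IL1β plus CDD-3013. Its CDD-3013 libraries lay just above the vehicle libraries and far below the IL1β libraries, 0.07 ± 0.06 (SE, adjusted p = 0.343) from vehicle and -1.74 ± 0.06 (SE, adjusted p = 1.6e-18) from IL1β alone. The strand setting of the counting is not given in the sources used here, so reads of overlapping genes cannot be assigned with certainty.

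Other lost genes were NEDD9, ROS1 and DUSP1. NEDD9, a scaffold of focal adhesions, had 2.05 and 1.47 CPM in the vehicle libraries, 9.58 and 10.8 CPM with IL1β alone and 2.43 and 2.97 CPM with IL1β plus CDD-3013, and ROS1, a receptor tyrosine kinase, had 0.998 and 1.01 CPM in the vehicle libraries, 3.47 and 3.19 CPM with IL1β alone and 0.956 and 1.35 CPM with IL1β plus CDD-3013. The difference of ROS1 from IL1β alone, -1.54 ± 0.41 (SE, adjusted p = 0.00467), was not called without CDD-3013 replicate 1 (-1.30, adjusted p = 0.0549). NEDD9 was 0.60 ± 0.27 from vehicle in the CDD-3013 arm and 2.52 ± 0.24 with IL1β alone; without vehicle replicate 1 it was called above vehicle (0.88, adjusted p = 0.0493). DUSP1, a phosphatase of p38 and JNK, had 81.7 and 86.6 CPM in the vehicle libraries, 178 and 204 CPM with IL1β alone and 82.8 and 107 CPM with IL1β plus CDD-3013. Its replicates in the CDD-3013 arm differed, and the change from vehicle was 0.18 ± 0.13 (SE, adjusted p = 0.298); without CDD-3013 replicate 1 it was 0.37 (adjusted p = 0.00189), which would make it partly lost. Of the 17 MAPK phosphatases and Sprouty genes, 7 were higher and 1, DUSP8, lower than vehicle (26.6% and 20.3% of all tested genes), with a median of 0.17 against 0.73 for IL1β alone. DUSP7 and DUSP16 differed from IL1β alone by -0.49 ± 0.08 and -0.50 ± 0.07, whereas DUSP6, the ERK phosphatase, was above it by 0.80 ± 0.16 (10.2 and 11.1 CPM against 5.94 and 6.28 CPM). SPRY1, an inhibitor of receptor tyrosine kinase signalling, was likewise above IL1β alone by 0.66 ± 0.16 (SE, adjusted p = 0.00255), a call lost without IL1β replicate 2 (0.54, adjusted p = 0.0515).

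Of the raised plasminogen genes 6 of 9 were partly lost, against 16.08% of all raised genes. Of 11 tested plasminogen activators and serpins, 9 were higher than vehicle and 1 lower (26.6% and 20.3% of all tested genes). Against IL1β alone 7 were lower and 2 higher (9.84% and 15.6% of all genes), and 4 and 2 without the correction. The median log2 change from vehicle was 1.21, against 1.66 with IL1β alone. PLAUR, the urokinase receptor, kept 58.2% of its rise, with 28.2 and 27.7 CPM in the vehicle libraries, 90.2 and 86.2 CPM with IL1β alone and 54.1 and 55.05 CPM with IL1β plus CDD-3013. SERPINB2, an inhibitor of urokinase, kept 88.7%, with 55.4 and 62.6 CPM in the CDD-3013 arm and 92.1 and 94.3 CPM with IL1β alone. In contrast SERPINB4, a serpin of squamous epithelia with a near-identical neighbour that may share its reads, was amplified, with 0.551 and 0.351 CPM in the vehicle libraries, 6.30 and 8.12 CPM with IL1β alone and 19.7 and 18.3 CPM with IL1β plus CDD-3013. TNC (chr9:115019578-115118257, minus strand), the matrix glycoprotein tenascin C, had 76.2 and 81.1 CPM in the vehicle libraries, 535 and 603 CPM with IL1β alone and 228 and 244 CPM with IL1β plus CDD-3013. The CDD-3013 libraries formed a separate middle group, 1.59 ± 0.08 above vehicle and -1.27 ± 0.07 (SE, adjusted p = 6.9e-10) from IL1β alone. LOX, the enzyme that cross-links collagen, kept 73.8% of its rise (471 and 516 CPM against 719 and 699.6 CPM with IL1β alone and 178 and 176 CPM in vehicle). ITGA2, a collagen-binding integrin subunit, kept 65.9%, and PAPPA, a protease of IGF-binding proteins, 63.1%. Of 21 tested adhesion molecules, 12 were higher and 8 lower than vehicle (26.6% and 20.3% of all tested genes). Against IL1β alone 8 were lower and 1 higher (9.84% and 15.6% of all genes), and 10 and 1 without the correction.

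Transcription factors and signalling genes were also found in the partly lost class. KLF6, a zinc-finger factor of the immediate-early set, had 57.4 and 58.1 CPM in the vehicle libraries, 151 and 146 CPM with IL1β alone and 65.8 and 78.2 CPM with IL1β plus CDD-3013. Only 23.3% of its rise was left, -1.04 ± 0.07 (SE, adjusted p = 8.95e-12) from IL1β alone, and under library totals it lay below vehicle (-0.07). RUNX2, the runt-domain factor of bone and of matrix genes, kept 35.7%, with 0.60 ± 0.15 (SE, adjusted p = 0.00197) from vehicle, a call lost without CDD-3013 replicate 1 (0.32, adjusted p = 0.149), with DESeq2 (0.41) and under library totals (0.14). TRAF1 (chr9:120902393-120929173, minus strand), an adaptor of TNF receptors, had 3.99 and 2.98 CPM in the vehicle libraries, 37.4 and 40.1 CPM with IL1β alone and 13.9 and 17.6 CPM with IL1β plus CDD-3013. It was the only 1 of the 17 NF-κB genes raised at least 2-fold by IL1β to be partly lost, -1.30 ± 0.12 (SE, adjusted p = 6.01e-09) from IL1β alone. EGFR, the receptor of HBEGF, kept 76.03% of its rise, with 162 and 166 CPM in the vehicle libraries, 503 and 492 CPM with IL1β alone and 362 and 402 CPM with IL1β plus CDD-3013. IRAK2, a kinase of the IL1 receptor complex, kept 89.6%, and SMAD3, which carries TGF-β signals, 89.02%. INHBA, which encodes the activin A subunit, had 1.04 and 0.860 CPM in the vehicle libraries, 28.5 and 26.8 CPM with IL1β alone and 16.4 and 18.8 CPM with IL1β plus CDD-3013, -0.66 ± 0.11 (SE, adjusted p = 9.45e-05) from IL1β alone.

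**Figure D3:**
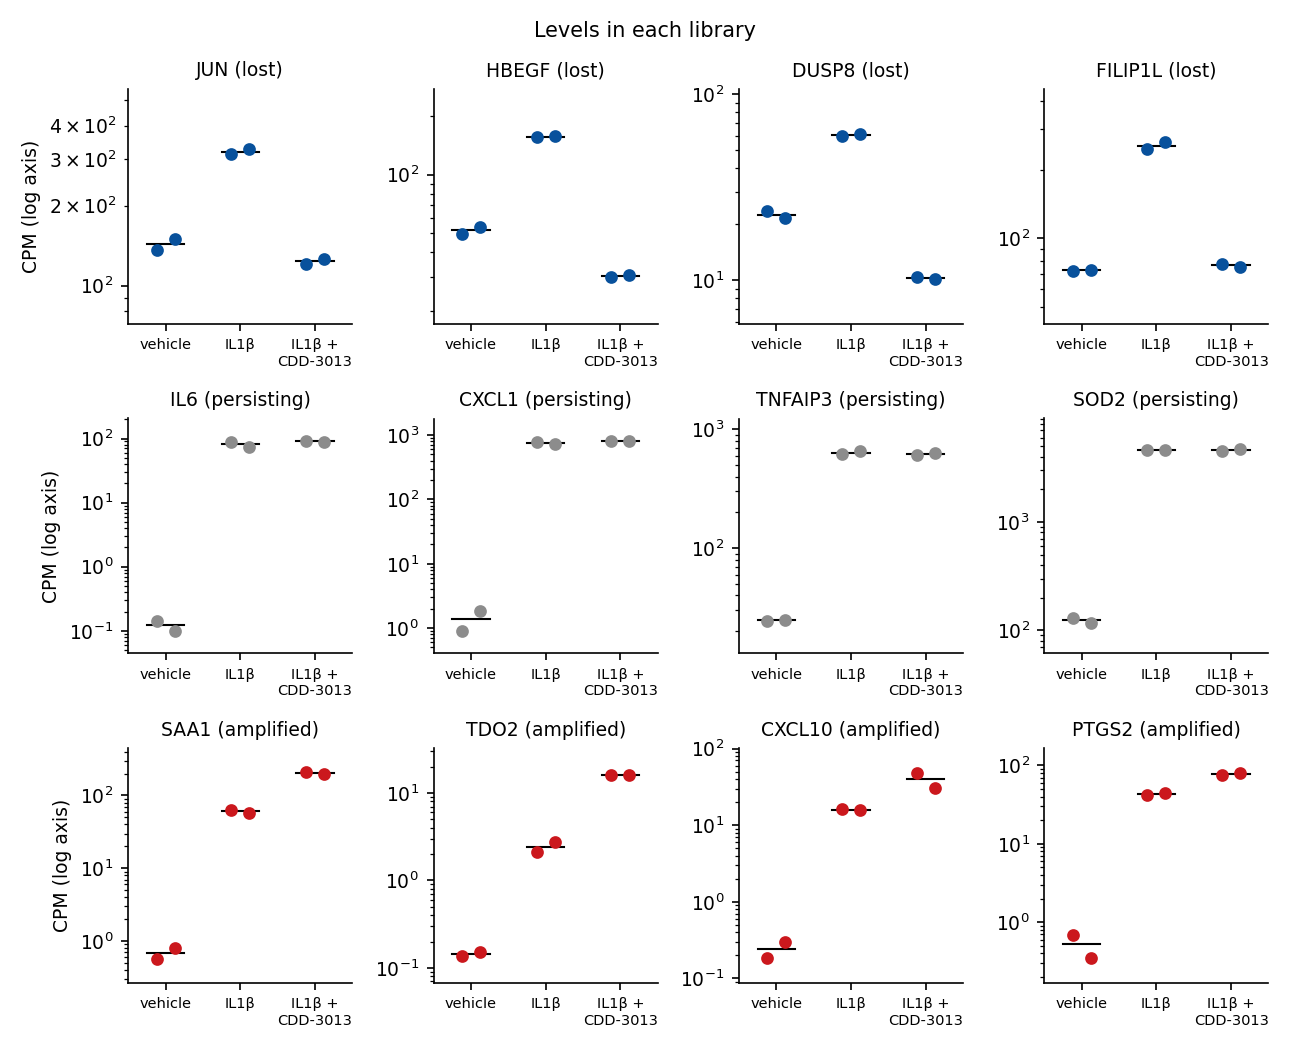
CPM (log axis) of 12 genes in the vehicle, IL1β and IL1β plus 1 µM CDD-3013 libraries, 1 point for each library and a bar at the mean of 2. The top row holds lost genes (JUN, HBEGF, DUSP8, FILIP1L), the middle row persisting ones (IL6, CXCL1, TNFAIP3, SOD2) and the bottom row amplified ones (SAA1, TDO2, CXCL10, PTGS2).

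Most chemokines kept their response. All 16 tested members of the list of 20 were higher than vehicle with IL1β plus CDD-3013, against 26.6% of all tested genes. The median log2 change was 5.0 with members at 3 or fewer vehicle counts set to their bounds, and 4.96 with IL1β alone. Of the 14 raised at least 2-fold by IL1β, 8 persisted, 5 were amplified and 1 was partly lost (48.1%, 25.73% and 16.08% of all raised genes). CXCL1 (chr4:73869393-73871242, plus strand), a neutrophil chemokine, had 0.913 and 1.85 CPM in the vehicle libraries, 782 and 726 CPM with IL1β alone and 799.5 and 805 CPM with IL1β plus CDD-3013, the IL1β and the CDD-3013 libraries lying far above vehicle. Its difference from IL1β alone was 0.09 ± 0.06 (SE, adjusted p = 0.325), and without the correction 0.31, which was called. Over 19 fits this difference ran from -0.07 to 0.37 and was called in 5. CXCL6 and CCL7 had 906 and 857 CPM and 23.1 and 24.9 CPM in the CDD-3013 arm and 949.8 and 898 CPM and 22.9 and 23.2 CPM with IL1β alone. CXCL8 (chr4:73740506-73743716, plus strand), the neutrophil chemokine IL8, was the partly lost member, with 2.02 and 1.70 CPM in the vehicle libraries, 989 and 923 CPM with IL1β alone and 530.2 and 666 CPM with IL1β plus CDD-3013. Both CDD-3013 values were below both IL1β values and far above vehicle, 8.31 ± 0.26 (SE, adjusted p = 8.1e-12) from vehicle and -0.68 ± 0.10 (SE, adjusted p = 0.000528) from IL1β alone. CCL2, which draws monocytes, was amplified slightly, from 329.8 and 338 CPM with IL1β alone to 418 and 444 CPM. CXCL10 (chr4:76021117-76023497, minus strand), an interferon-inducible T cell chemokine, had 0.185 and 0.301 CPM in the vehicle libraries, 16.1 and 15.8 CPM with IL1β alone and 48.1 and 30.8 CPM with IL1β plus CDD-3013. CCL20 had no count in vehicle and was at least 220.6-fold higher with IL1β plus CDD-3013 and at least 128.1-fold higher with IL1β alone, 3 counts over the group being taken for 0. CXCL11 and CCL5, named after their values were seen, were the other amplified members, by 0.99 ± 0.29 and 0.50 ± 0.12 from IL1β alone. The call of CCL5 was lost without IL1β replicate 2 (0.40, adjusted p = 0.0692), and that of CXCL11 without either IL1β library (1.04 and 0.98) or CDD-3013 replicate 1 (0.87).

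Cytokine genes persisted in the main. Of 22 tested cytokines and colony-stimulating factors, 20 were higher than vehicle and none lower (26.6% and 20.3% of all tested genes), with a median of 2.13 against 1.74 for IL1β alone. IL6 (chr7:22725884-22732002, plus strand), an inducer of the acute phase, had 0.142 and 0.100 CPM in the vehicle libraries, 88.4 and 74.01 CPM with IL1β alone and 91.2 and 88.7 CPM with IL1β plus CDD-3013. The CDD-3013 libraries lay just above the IL1β libraries, but the difference was not called (0.15 ± 0.09 SE, adjusted p = 0.243). Over 19 fits this difference ran from 0.04 to 0.39 and was called in 6, such as without IL1β replicate 1 (0.30) and without the correction (0.31). LIF, of the same receptor family, had 321 and 349 CPM with CDD-3013 and 339 and 322 CPM with IL1β alone, from 26.5 and 25.4 CPM in vehicle. CSF3, the granulocyte factor, rose from 1 read in the 2 vehicle libraries to 1205 reads in the CDD-3013 libraries, a ratio of 1522 (95% counting interval 272.7 to 60170). With IL1β alone the ratio was 1341 (240.1 to 53000). The cells' own IL1B had 0.285 and 0.552 CPM in vehicle, 15.3 and 12.6 CPM with IL1β alone and 15.4 and 19.5 CPM in the CDD-3013 arm. IL11 and IL18 were partly lost. IL18, an IL1 family cytokine, kept only 21.8% of its rise, with 35.3 and 35.3 CPM in the vehicle libraries, 72.03 and 70.7 CPM with IL1β alone and 41.7 and 40.6 CPM with IL1β plus CDD-3013, -0.79 ± 0.07 (SE, adjusted p = 2.93e-09) from IL1β alone. Its remaining rise over vehicle was not called under library totals (0.10), with length alone corrected (0.10) or with the stricter filter (0.07). IL11 kept 72.9%.

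Most NF-κB genes persisted or were amplified. Of 27 tested NF-κB subunits, inhibitors and feedback genes, 25 were higher than vehicle and none lower (26.6% and 20.3% of all tested genes), with a median of 2.01 against 1.68 for IL1β alone. Against IL1β alone 10 of the 27 were higher and 3 lower (15.6% and 9.84% of all genes), and 12 and 6 without the correction. Of the 17 raised at least 2-fold by IL1β, 9 were amplified, 7 persisted and TRAF1 was partly lost (25.73%, 48.1% and 16.08% of all raised genes). TNFAIP3 (chr6:137867188-137883312, plus strand), the ubiquitin-editing brake on NF-κB, had 24.6 and 24.97 CPM in the vehicle libraries, 620.4 and 654 CPM with IL1β alone and 610.2 and 628 CPM with IL1β plus CDD-3013. The IL1β and CDD-3013 libraries overlapped, with a difference of -0.04 ± 0.05 (SE, adjusted p = 0.619). NFKBIA, which encodes the inhibitor IκBα, had 42.9 and 46.5 CPM in the vehicle libraries, 239 and 258 CPM with IL1β alone and 229 and 252 CPM with IL1β plus CDD-3013, again with overlap. SOD2, the mitochondrial superoxide dismutase and a textbook NF-κB target, had 131 and 118 CPM in the vehicle libraries, 4588 and 4584 CPM with IL1β alone and 4534 and 4692 CPM with IL1β plus CDD-3013, and its difference from IL1β alone was 0.01 ± 0.05 (SE, adjusted p = 0.93). NFKB2, the precursor of p52, was among the amplified members, with 68.4 and 66.7 CPM in the vehicle libraries, 377 and 372 CPM with IL1β alone and 499.9 and 489 CPM with IL1β plus CDD-3013. BIRC3, an inhibitor of apoptosis that acts in this pathway, was amplified by 0.52 ± 0.05 (SE, adjusted p = 2.66e-08), but by only 0.15 without the correction, which was not called. ICAM1 and VCAM1, the ligands of leukocyte integrins, persisted, with 543 and 594 CPM and 412 and 462 CPM in the CDD-3013 arm against 528 and 526 CPM and 466 and 468 CPM with IL1β alone. Over 19 fits the difference of ICAM1 from IL1β alone ran from 0.05 to 0.21 and was called in 4, such as without CDD-3013 replicate 1 (0.17). That of VCAM1 ran from -0.26 to -0.01 and was called in 2.

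Most raised genes of the acute phase and of innate defence were amplified. Of 19 tested members of a list of 23, 17 were higher than vehicle and 1 lower (26.6% and 20.3% of all tested genes). Against IL1β alone 17 were higher and none lower (15.6% and 9.84% of all genes). The median log2 change of the 19 from vehicle was 4.61 with bounds, against 3.16 for IL1β alone. Of the 15 raised at least 2-fold by IL1β, 14 were amplified, against 25.73% of all raised genes. SAA1 (chr11:18266174-18269977, plus strand), a serum amyloid protein of the acute phase, had 0.576 and 0.805 CPM in the vehicle libraries, 63.7 and 57.1 CPM with IL1β alone and 209 and 195 CPM with IL1β plus CDD-3013. The groups did not overlap, and the CDD-3013 libraries lay above the IL1β libraries by 1.74 ± 0.10 (SE, adjusted p = 3.32e-08). SAA2, whose sequence is close enough to SAA1 for reads to be shared, rose from 3 vehicle reads to 2720, a ratio of 1145 (391.5 to 5557), against 390.7 (133.3 to 1898) for IL1β alone. TDO2 (chr4:155854738-155920406, plus strand), which opens the breakdown of tryptophan to kynurenine, had 0.137 and 0.151 CPM in the vehicle libraries, 2.10 and 2.75 CPM with IL1β alone and 16.01 and 16.1 CPM with IL1β plus CDD-3013, the groups being fully separate, and lay 2.73 ± 0.20 (SE, adjusted p = 1.49e-11) above IL1β alone. C3, the central complement component, had 161 and 165 CPM in the vehicle libraries, 760.0 and 849 CPM with IL1β alone and 1236 and 1188 CPM with IL1β plus CDD-3013, 0.59 ± 0.06 (SE, adjusted p = 1.42e-08) above IL1β alone. PTX3, a soluble pattern receptor, was amplified by 0.53 ± 0.07 (SE, adjusted p = 4.01e-06). HP, haptoglobin, had no vehicle count and was at least 32.42-fold higher with CDD-3013 and at least 8.945-fold higher with IL1β alone. Its call against IL1β alone was lost without IL1β replicate 1 (adjusted p = 0.0699). SOD2, described above, was the 1 persisting member.

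Interferon-stimulated genes moved the same way by smaller steps. Of 40 tested, 37 were higher than vehicle and none lower (26.6% and 20.3% of all tested genes). Against IL1β alone 27 were higher and none lower (15.6% and 9.84% of all genes), and 25 and 1 without the correction. The median change from vehicle was 1.42, against 0.95 with IL1β alone. OASL, an oligoadenylate synthetase-like protein, had 1.97 and 2.66 CPM in the vehicle libraries, 9.20 and 8.43 CPM with IL1β alone and 26.1 and 19.4 CPM with IL1β plus CDD-3013, with 1.37 ± 0.16 (SE, adjusted p = 5.33e-07) from IL1β alone. MX2, a GTPase that restricts viruses, was above IL1β alone by 0.84 ± 0.14 (SE, adjusted p = 4.58e-05) and OAS2 by 0.83 ± 0.13 (SE, adjusted p = 4.09e-05). IFIT2, below 2-fold with IL1β alone, rose from 5.50 and 7.32 CPM to 26.7 and 22.3 CPM in the CDD-3013 arm, 1.03 ± 0.14 (SE, adjusted p = 4.01e-06) above IL1β alone. TNFSF10, the death ligand TRAIL, had 3.69 and 4.65 CPM in the vehicle libraries, 7.28 and 9.09 CPM with IL1β alone and 21.2 and 20.3 CPM with IL1β plus CDD-3013, again with the CDD-3013 values on top (1.35 ± 0.14 SE, adjusted p = 2.6e-08). Of 18 tested genes of MHC class I and antigen processing, 16 were higher than vehicle and none lower (26.6% and 20.3% of all genes), and 12 were higher than with IL1β alone and none lower (15.6% and 9.84%), with medians of 0.74 and 0.5 against vehicle. PSMB10, a subunit of the immunoproteasome, had 44.2 and 46.6 CPM in the CDD-3013 arm and 28.7 and 28.4 CPM with IL1β alone (0.67 ± 0.08 SE, adjusted p = 8.72e-07). TAP1, the peptide transporter, was amplified by 0.32 ± 0.06 (SE, adjusted p = 0.000444). Reads of the classical HLA genes and of the guanylate-binding proteins may be shared among paralogues. GBP4 had 31.7 and 35.05 CPM against 17.5 and 18.7 CPM, and all 5 guanylate-binding proteins were above vehicle, against 26.6% of all tested genes.

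IL1R1, PTGS2 and PTGER4 were amplified too. IL1R1 (chr2:102064544-102179874, plus strand), the signalling receptor for IL1β, had 22.9 and 19.1 CPM in the vehicle libraries, 159 and 163 CPM with IL1β alone and 233 and 239 CPM with IL1β plus CDD-3013. Its CDD-3013 values lay above all IL1β values by 0.55 ± 0.06 (SE, adjusted p = 5.91e-08). IL1RAP, the co-receptor, was 0.67 ± 0.08 above vehicle and did not differ from IL1β alone beyond the spread (0.07 ± 0.08 SE, adjusted p = 0.535). PTGS2 (chr1:186671791-186680427, minus strand), the inducible cyclooxygenase, had 0.691 and 0.355 CPM in the vehicle libraries, 42.2 and 44.4 CPM with IL1β alone and 74.4 and 79.5 CPM with IL1β plus CDD-3013, with a difference of 0.83 ± 0.10 (SE, adjusted p = 9.16e-06) from IL1β alone. PTGER4, a receptor for prostaglandin E2, was amplified by 0.61 ± 0.09 (SE, adjusted p = 2.45e-05). PTGES, the terminal synthase of prostaglandin E2, had 219 and 203 CPM against 195 and 178 CPM, 0.17 ± 0.06 (SE, adjusted p = 0.0501) from IL1β alone, which was called without IL1β replicate 1, CDD-3013 replicate 2 or either vehicle or CDD-2728 library (0.18 to 0.25). PLA2G4A, the cytosolic phospholipase that frees arachidonic acid, rose from 13.00 and 13.2 CPM to 30.8 and 28.3 CPM, 0.86 ± 0.11 (SE, adjusted p = 1.9e-06) above IL1β alone. Of 19 tested metalloproteinases and inhibitors, 4 were higher and 3 lower than with IL1β alone (15.6% and 9.84% of all tested genes), and 5 and 4 without the correction. MMP1, a collagenase, was amplified by 0.42 ± 0.12 (SE, adjusted p = 0.012), a call lost without IL1β replicate 2 (0.31). MMP3, a stromelysin, persisted with 3.66 ± 0.65 above vehicle. From IL1β alone it differed by -0.6, MMP10 by -1.52 and the inhibitor TIMP3 by -0.71. The 95% intervals, not adjusted, were -1.23 to 0.03, -2.75 to -0.28 and -0.85 to -0.57. MMP13 rose from 2 vehicle reads to 180, a ratio of 113.7 (31.02 to 946), against 53.67 (14.42 to 450.1) for IL1β alone. HK2, a hexokinase, had 30.4 and 26.2 CPM in the vehicle libraries, 128 and 132 CPM with IL1β alone and 231 and 242 CPM with IL1β plus CDD-3013. CEBPB, a factor of acute-phase promoters, had 137 and 142 CPM in the vehicle libraries, 523 and 569 CPM with IL1β alone and 676 and 711 CPM with IL1β plus CDD-3013. STEAP4, a metalloreductase, had 1.97 and 2.29 CPM in the vehicle libraries, 20.3 and 24.9 CPM with IL1β alone and 74.6 and 80.4 CPM with IL1β plus CDD-3013, 1.78 ± 0.15 (SE, adjusted p = 8.34e-06) above IL1β alone. WNT5A, a non-canonical WNT ligand, was amplified by 0.70 ± 0.06 (SE, adjusted p = 6.9e-10), and HIF1A by 0.49 ± 0.05 (SE, adjusted p = 5.82e-08).

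**Figure D4:**
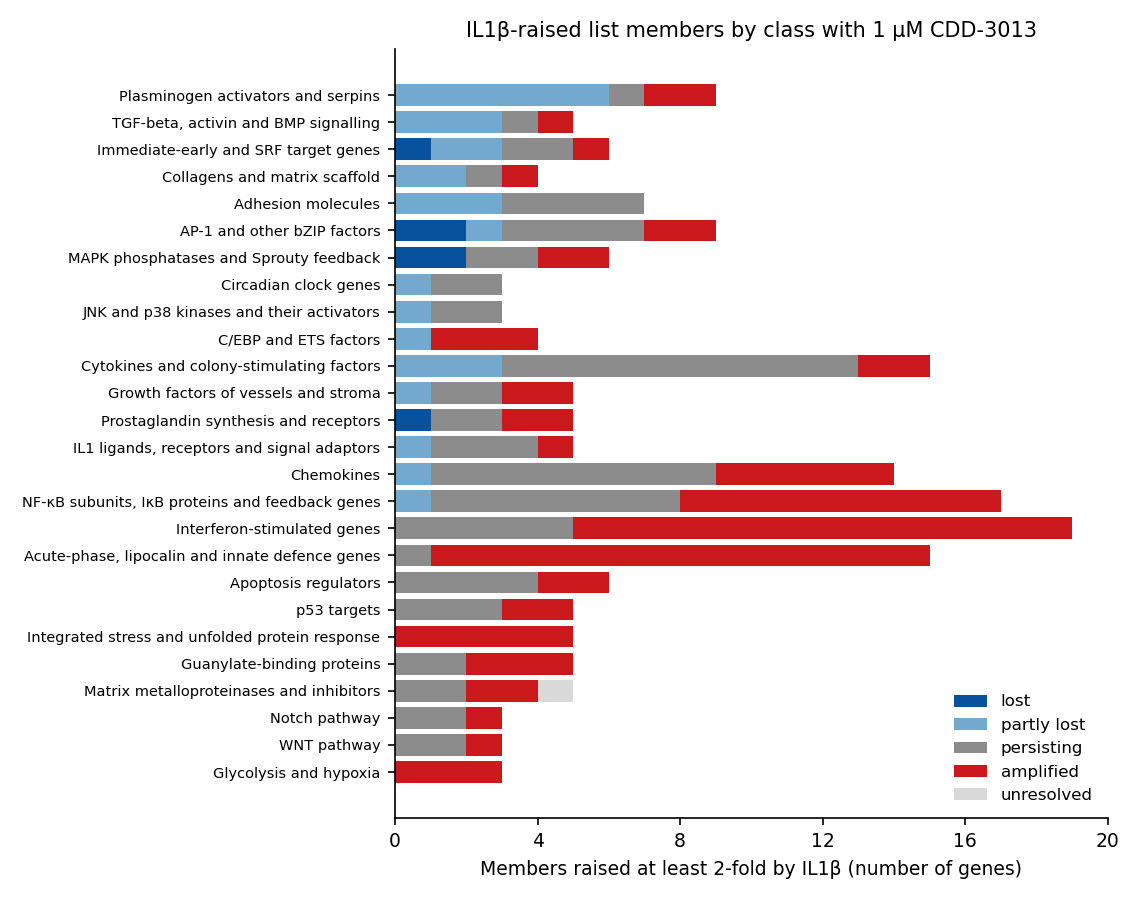
Number of list members raised at least 2-fold by IL1β in each class with 1 µM CDD-3013, as stacked bars by gene list. The bars of the acute-phase list (14 of 15) and of the interferon-stimulated list (14 of 19) are mostly amplified, that of the plasminogen list (6 of 9) mostly partly lost. Over all raised genes 25.73% were amplified and 16.08% partly lost.

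**Figure D5:**
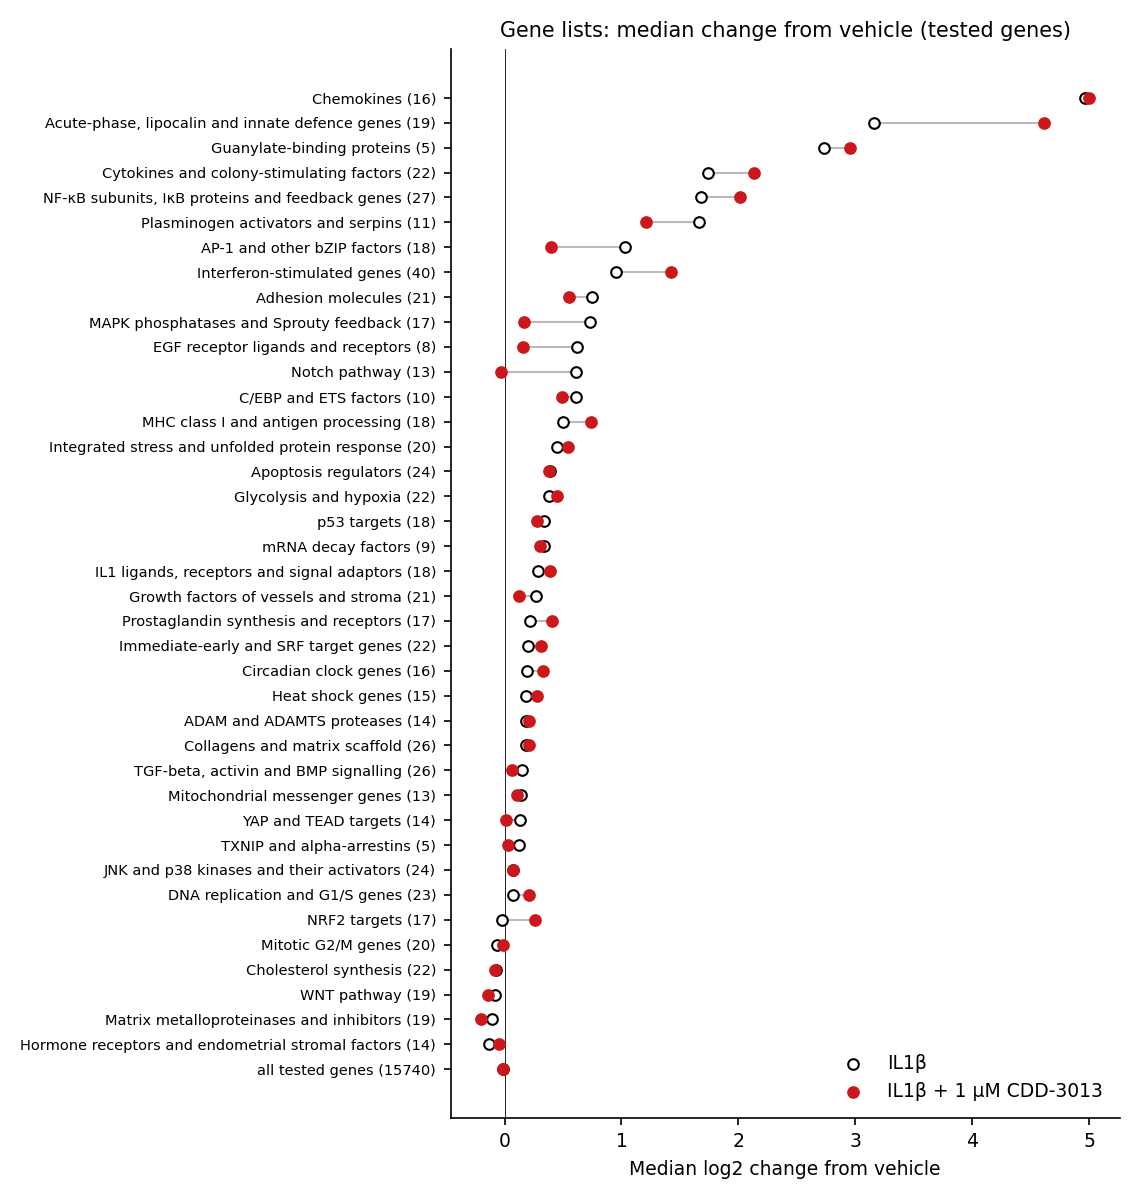
Median log2 change from vehicle of the tested members of each gene list, with IL1β alone and with IL1β plus 1 µM CDD-3013, members at 3 or fewer vehicle counts entering at their bounds. The CDD-3013 point lies to the right for the acute-phase list (4.61 against 3.16) and to the left for the AP-1 list (0.4 against 1.03) and the phosphatase list (0.17 against 0.73).

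Of the 501 genes lowered by IL1β, 311 (62.08%) persisted, 47 (9.381%) were partly lost, 24 (4.79%) were lost, 5 were amplified and 114 were unresolved. With 1 IL1β replicate choosing and the other compared, 10 or 7 were lost and 27 or 30 partly lost. The partly lost genes numbered 30 or 31 without IL1β replicate 1 or either CDD-3013 library, and the amplified 2 or 3 without IL1β replicate 1 or CDD-3013 replicate 2. The median share of the fall left was 77.52%. MAP2K6, the kinase that activates p38, had 7.48 and 7.05 CPM in the vehicle libraries, 0.537 and 0.917 CPM with IL1β alone and 1.05 and 0.915 CPM with IL1β plus CDD-3013, -2.87 ± 0.34 (SE, adjusted p = 3.4e-09) from vehicle. BMP4, a bone morphogenetic protein, had 78.5 and 73.8 CPM in the vehicle libraries, 24.9 and 25.7 CPM with IL1β alone and 26.8 and 27.1 CPM with IL1β plus CDD-3013, with the IL1β and CDD-3013 groups close together and far below vehicle. PDGFRB, a receptor of stromal growth factors, had 130.0 and 125 CPM in the vehicle libraries, 51.1 and 52.1 CPM with IL1β alone and 57.2 and 56.2 CPM with IL1β plus CDD-3013. WNT2B and CCN2, a WNT ligand and a matricellular protein, differed from vehicle by -1.71 ± 0.10 and -1.07 ± 0.09. The fall of HAND2 (chr4:173524969-173530229, minus strand), a transcription factor of endometrial stroma, was lost. It had 51.1 and 53.4 CPM in the vehicle libraries, 23.04 and 28.1 CPM with IL1β alone and 46.3 and 45.99 CPM with IL1β plus CDD-3013, 0.85 ± 0.09 (SE, adjusted p = 4.1e-08) above IL1β alone. PDE4B, a phosphodiesterase that degrades cAMP, returned from 2.38 and 2.60 CPM to 7.73 and 7.89 CPM, beside 8.33 and 8.14 CPM in vehicle. SEMA3A, a semaphorin, was lost under the correction (21.3 and 22.8 CPM against 21.4 and 22.3 CPM in vehicle) but was called below vehicle without it (-0.38). DAB2, an endocytic adaptor, had 818 and 795 CPM in the vehicle libraries, 287 and 330.3 CPM with IL1β alone and 659 and 568 CPM with IL1β plus CDD-3013, 0.99 ± 0.08 (SE, adjusted p = 8.64e-07) above IL1β alone. The 5 genes that fell further were EGR1, GPER1, LPAR5, TRERF1 and a gene without a symbol. EGR1, a zinc-finger factor of the immediate-early set, had 8.24 and 7.80 CPM in the vehicle libraries, 2.58 and 1.46 CPM with IL1β alone and 0.561 and 1.03 CPM with IL1β plus CDD-3013. Its difference from IL1β alone, -1.36 ± 0.39 (SE, adjusted p = 0.0078), was lost without IL1β replicate 1 (-0.88, adjusted p = 0.231) or CDD-3013 replicate 1 (-0.97, adjusted p = 0.113). LPAR5, a receptor of lysophosphatidic acid, fell from 45.4 and 40.9 CPM to 11.03 and 11.4 CPM, -0.50 ± 0.12 (SE, adjusted p = 0.00351) from IL1β alone. GPER1, a membrane receptor for estrogens, had 2.35 and 2.75 CPM against 3.99 and 4.16 CPM with IL1β alone, and its call against IL1β alone was lost without any 1 of the 4 libraries compared (-0.79 to -0.56).

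Some genes changed with IL1β plus CDD-3013 and not with IL1β alone. By a 2-fold rule, 34 such genes were higher and 141 lower than vehicle (58 to 78 lower without IL1β replicate 1 or 2, CDD-3013 replicate 2 or vehicle replicate 1), and of these 24 and 117 stayed under 5 CPM in all 3 groups. Only 48 of the 141 lower genes were protein-coding, against 12952 of the 15740 tested. ID1 (chr20:31605283-31606515, plus strand), a dominant-negative helix-loop-helix factor, had 105 and 103 CPM in the vehicle libraries, 95.3 and 105 CPM with IL1β alone and 212 and 236 CPM with IL1β plus CDD-3013. The vehicle and IL1β libraries overlapped, and the CDD-3013 libraries lay 1.10 ± 0.06 (SE, adjusted p = 5.99e-14) above vehicle. THBS1, thrombospondin, had 282 and 292 CPM in the vehicle libraries, 317 and 320.5 CPM with IL1β alone and 536 and 633 CPM with IL1β plus CDD-3013, 1.03 ± 0.07 (SE, adjusted p = 5.16e-11) from vehicle. SNCAIP, a synuclein-binding protein, had 79.8 and 79.5 CPM against 32.3 and 35.9 CPM in vehicle, and PGF, placental growth factor, 38.7 and 38.4 CPM against 17.9 and 18.9 CPM. PDGFB, a ligand of PDGFRB, was raised by 0.30 ± 0.09 with IL1β alone and fell below vehicle with CDD-3013. It had 30.9 and 33.3 CPM in the vehicle libraries, 40.97 and 37.8 CPM with IL1β alone and 12.4 and 13.3 CPM with IL1β plus CDD-3013, -1.32 ± 0.10 (SE, adjusted p = 1.39e-11) from vehicle and -1.62 ± 0.10 (SE, adjusted p = 3.59e-12) from IL1β alone. Of 17 NRF2 target genes, 9 were higher than vehicle and 1 lower (26.6% and 20.3% of all tested genes), and 9 were higher and none lower than with IL1β alone (15.6% and 9.84%). HMOX1, heme oxygenase, had 13.2 and 14.2 CPM in the vehicle libraries, 13.1 and 13.9 CPM with IL1β alone and 21.4 and 25.5 CPM with IL1β plus CDD-3013, and NQO1, a quinone reductase, lay 0.53 ± 0.07 (SE, adjusted p = 2.12e-06) above vehicle. COL3A1, a fibrillar collagen, was called lower than vehicle with IL1β alone (-0.26 ± 0.05 SE, adjusted p = 0.000377) and higher than vehicle with CDD-3013 (0.35 ± 0.05 SE, adjusted p = 5.43e-06), the latter not under library totals (0.03). Of 26 tested collagens and matrix genes, 7 were higher and 7 lower than with IL1β alone (15.6% and 9.84% of all genes), and 4 and 11 without the correction.

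The JNK genes themselves were not called different from vehicle with CDD-3013. MAPK8, which encodes JNK1, turned direction under library totals (-0.42). It had 26.4 and 30.7 CPM in the vehicle libraries, 29.6 and 33.6 CPM with IL1β alone and 32.00 and 31.1 CPM with IL1β plus CDD-3013, the vehicle and IL1β libraries overlapping, and was not called different from vehicle in the CDD-3013 arm (0.15 ± 0.09 SE, adjusted p = 0.206). MAPK9, which encodes JNK2, had 65.1 and 70.6 CPM in vehicle and 60.8 and 67.4 CPM in the CDD-3013 arm (-0.08 ± 0.07 SE, adjusted p = 0.356), but was called below vehicle without the correction (-0.25). MAPK10, the JNK3 gene, had 1.74 and 2.03 CPM in vehicle and 1.28 and 1.41 CPM in the CDD-3013 arm. Of 24 JNK and p38 kinases and activators, 8 were higher and 2 lower than vehicle, against 26.6% and 20.3% of all tested genes, so the share of higher members was near that of all genes. Against IL1β alone 3 were higher and 5 lower without the correction. With it 1 was higher and 2 lower (15.6% and 9.84% of all genes). The first was MAPKAPK3 (0.48 ± 0.14) and the others were MAP2K3 (-0.18 ± 0.06) and MAPK8IP3 (-0.30 ± 0.07), of which MAP2K3 was not called without the correction (0.03) or without either IL1β library (-0.17 and -0.18) or CDD-3013 replicate 1 (-0.11). MAPKAPK3 was not called without IL1β replicate 1 (0.44) or CDD-3013 replicate 2 (0.47). RNA levels do not measure kinase activity.

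CDD-2728 was the other compound of the series described as a JNK inhibitor, and 1 µM after 6 h was the only dose at which the 2 compounds could be compared. With this 1 pair, 383 genes were higher with CDD-3013 than with CDD-2728 (2.43%) and 109 lower (0.693%), adjusted over the 15740 genes. These counts rested on single libraries: leaving out CDD-2728 replicate 2 gave 4 and 9, leaving out CDD-2728 replicate 1 gave 989 and 270, and leaving out CDD-3013 replicate 2 gave 21 and 22. The higher genes numbered 695 without CDD-3013 replicate 1 and 248 without IL1β replicate 2. Without the correction the counts were 1550 and 1261, with 55.1% of the calls higher against 77.8% in the main fit. Under library totals, also without the correction, 34.5% were higher. The classes were set with the same CDD-3013 libraries that are compared here. By this choice alone, lost raised genes lean towards lower values with CDD-3013, and amplified and gained raised genes towards higher ones. Among the lost raised genes, 5 of 37 were lower with CDD-3013. They were HBEGF, DUSP8, JUN, FILIP1L and THBS2-AS1, an antisense gene named after its values were seen. HBEGF had 47.99 and 51.3 CPM with CDD-2728 and 29.99 and 30.6 CPM with CDD-3013, a difference of -0.71 ± 0.07 (SE, adjusted p = 5.74e-06). DUSP8 had 17.2 and 19.8 CPM and 10.4 and 10.2 CPM (-0.85 ± 0.12 SE, adjusted p = 0.000222). For JUN the values were 169.8 and 169 CPM and 121 and 126 CPM (-0.46 ± 0.06 SE, adjusted p = 0.000108), and for FILIP1L 106 and 102 CPM and 77.2 and 75.4 CPM (-0.44 ± 0.06 SE, adjusted p = 0.00012). The values of the compounds did not overlap for any of these 4 genes, CDD-3013 being lower each time. All 4 were called whichever library of vehicle, IL1β alone, CDD-3013 or CDD-2728 at 1 µM was left out. CREB5 was not called different (-0.51 ± 0.29 SE, adjusted p = 0.363, 95% interval of the difference -1.08 to 0.06). Partly lost genes that were lower with CDD-3013 included TNC (-0.38 ± 0.07 SE, adjusted p = 0.0116) and PLAUR (-0.30 ± 0.07 SE, adjusted p = 0.0208). Among amplified genes SAA1 was higher with CDD-3013, 209 and 195 CPM against 166 and 129 CPM (0.45 ± 0.09 SE, adjusted p = 0.0204). TDO2 had 0.43 ± 0.14 (SE, adjusted p = 0.0959) with an interval of 0.16 to 0.70, and PTGS2 0.03 ± 0.10 (SE, adjusted p = 0.915) with an interval of -0.17 to 0.22. Of the gained genes ID1 was higher with CDD-3013 (0.35 ± 0.06 SE, adjusted p = 0.00323). Without CDD-2728 replicate 2 none of TNC (-0.36), PLAUR (-0.25), SAA1 (0.31) and ID1 (0.27) was called. Each was also lost without 1 or more CDD-3013 libraries, with values of -0.43 for TNC, -0.28 and -0.31 for PLAUR, 0.47 and 0.54 for SAA1 and 0.28 for ID1. PLAUR was not called either with DESeq2 or without the correction (-0.08 in both), under library totals (-0.15), with GC content alone corrected (-0.19) or with no filter (-0.21). The fits with DESeq2 and under library totals also left out the correction. IL6, CXCL8 and TNFAIP3 were not called different after adjustment (adjusted p = 0.157, 0.505 and 0.6), with intervals, themselves not adjusted, of -0.40 to -0.05, -0.34 to 0.06 and -0.16 to 0.04. IL6 was called without CDD-2728 replicate 1 (-0.36, adjusted p = 0.00404). A p-value that misses the threshold does not show that the compounds act alike. The 2 compounds share the IL1β and vehicle libraries as reference, so their losses and gains are not independent of each other.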

How the data were processed

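Poly(A) RNA of 12Z cells was sequenced, and the authors deposited 1 table of whole-number read counts per gene for 10 libraries. Per the submitters' processing notes fastp, STAR and featureCounts were used with hg38; the sources here state no versions, annotation or strand setting. Of 62750 gene IDs 61918 matched the gene table with their version and 754 without it. Counts were analysed in R 4.3.3 with edgeR 4.0.16 (quasi-likelihood, robust, TMM factors, limma 3.58.1), all 10 libraries sharing 1 estimate of the spread with 5 residual degrees of freedom. Loess trends of each library over log2 transcript length and GC content (span 0.3, 15317 genes with both) entered as offsets. P-values were adjusted by Benjamini-Hochberg over 15740 genes at 0.05. DESeq2 1.42.0, run without the correction for length and GC content, was an alternative. The fit was tested on simulated data in which few genes changed, and only in the CDD-3013 group. Such data cannot show how the fit behaves where many genes change, as they do here. A response was a called change of at least 2-fold with IL1β alone. Replicate numbers did not pair the libraries (correlation of deviations between vehicle and CDD-3013 0.045), so no block was used. Same-group libraries differed by more than sampling noise. Named genes were, by rule, the called genes with the largest changes against vehicle and within each class whose libraries did not overlap, the list members with the lowest p-values, and a set of inflammatory, AP-1 and JNK genes; others are said to be named after their values were seen. The members and lists were chosen with earlier results of these data known. Intervals of read ratios cover counting error only.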

Additional observations from a re-analysis of the deposited data

How the results depend on the processing

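Counts are given as higher and lower, or raised and lowered. DESeq2 was run without the correction for length and GC content, so it is not an alternative of method alone. With it, IL1β lowered 1706 genes, the compounds differed in 1407 and 1137, and 52 and 91 were gained. Without correction 2729 genes were below IL1β alone, the compounds differed in 1550 and 1261, 10 lowered genes were amplified and 64 raised were gained. GC alone gave 411 lower genes between compounds and 12 amplified lowered, and length alone 1294 and 495 between compounds. The fit under library totals also left out the correction. Its counts were 2148 and 6595 (CDD-3013 arm against vehicle), 1623 and 4730 (IL1β against vehicle), 3548 below IL1β alone, 1034 and 1965 between compounds, and 551 persisting, 30 amplified and 294 gained lowered. With no filter the compounds differed in 1010 and 209, with 3 amplified and 92 gained lowered. A stricter filter gave 169 lower between compounds, 170 and 152 persisting, 14 and 8 lost, and 7 and 33 gained. With a 1.5-fold response 527 and 762 persisted, 197 and 81 were partly lost, 86 and 87 lost, 270 and 29 amplified, and 199 and 259 gained. With a 4-fold response these were 143 and 55, 30 and 10, 6 and 2, 88 and 0, and 11 and 31. When IL1β replicate 1 chose the response and replicate 2 was compared, 69 and 27 were partly lost, 22 and 10 lost and 55 lowered gained. The reverse gave 30 lowered partly lost, 21 and 7 lost, 3 amplified lowered and 77 gained lowered. Fewer genes are tested under the stricter filter; otherwise the cause was not tested.

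Leaving out 1 library gave 3489 to 4357 higher and 2081 to 3314 lower genes for the CDD-3013 arm against vehicle, 2454 to 3212 and 1772 to 2831 for IL1β against vehicle, 1499 to 2671 and 785 to 1629 for the CDD-3013 arm against IL1β, and 4 to 989 and 9 to 270 between compounds. A group left with 1 library is assumed to vary like the others. Raised genes ranged over 309 to 385 persisting, 77 to 112 partly lost, 27 to 44 lost, 128 to 182 amplified and 24 to 51 gained, lowered ones over 253 to 320, 30 to 49, 16 to 28, 2 to 6 and 58 to 144. The fits without a CDD-2728 library were chosen after seeing the data. With the replicate number as a block 4137 and 3129 genes were called against vehicle.

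Named genes that turned direction were, under library totals, DUSP16 (-0.35), FILIP1L (-0.32), KLF6 (-0.07), MAPK8 (-0.42) and SEMA3A (-0.64) against vehicle, FOSL2 (-0.05), IL1RAP (-0.25), MAPK8 (-0.43) and WNT2B (-0.39) against IL1β alone, and PTGS2 (-0.29) between compounds. With DESeq2 they were SEMA3A (-0.37) against vehicle and MAP2K3 (0.04), MAPK8 (-0.35) and NFKBIA (0.24) against IL1β alone. Without correction they were SEMA3A (-0.38) against vehicle and MAP2K3 (0.03), MAPK8 (-0.35), NFKBIA (0.24) and WNT2B (-0.31) against IL1β alone, and with GC alone FOSL2 (-0.06).

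The number of 2 libraries a group limits the precision. The losses of HBEGF, DUSP8, JUN and FILIP1L against IL1β alone were called under every alternative run.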
